A study of Mus musculus with 5 samples.

Results

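CD8 T cells from the obstructed kidney of mice were followed in a pair of single-cell libraries. A cell was taken as a CD8 T cell when it held at least 2 unique molecular identifiers (UMIs, one per counted RNA molecule) of Cd3d, Cd3e and Cd3g together, at least 2 of Cd8a and Cd8b1 together, and none of Cd4 or Trdc. Members were thus chosen by their own counts of these genes, which are given here only as a description. Kept cells held no fewer than 500 UMIs and 250 genes, with mitochondrial UMIs no more than 20% of the total. The rule found 2706 cells among the 20619 kept cells of the 4 libraries with counts. Of these, 2174 came from the kidney of mice labelled PD-1 knockout (strain B6.Cg-Pdcd1tm1.1Shr/J) 3 days after unilateral ureteral obstruction (UUO, in which the left ureter is tied off and cut). The other 532 came from wild-type kidney 14 days after UUO. All mice were male and 8 to 10 weeks old, and the labels do not say how many were pooled in a library. Each group was 1 library, so no difference was tested, and ranges in brackets are exact 95% intervals that cover counting error only. Genotype and day differ together between the libraries, so their parts in any difference cannot be told apart.

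CD8 T cells recognise peptides on MHC class I and kill infected or altered cells with granzymes and perforin. After they have met antigen they can persist as effector memory cells that make the chemokine CCL5 and granzyme K, or as tissue-resident cells held by integrins such as CD49a and CD103. In injured kidney, T cells gather among the tubules, and the inhibitory receptor PD-1 marks those with recent or repeated receptor signalling.

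The study sorted innate lymphoid cells by flow cytometry and ran them on a BD Rhapsody system, yet CD8 T cells were present in both kidney libraries. The tissue digestion in the labels names pulmonary artery, not kidney. The 2 intestinal libraries, labelled group 3 innate lymphoid cells, held 8 cells each by the same rule. CD8 T cells had a median of 1904 UMIs and 1099 genes in the knockout-labelled library and 1670 UMIs and 1006.5 genes in the wild-type library. Their summed depth was 4570277 UMIs in the knockout-labelled library and 974035 UMIs in the wild-type library, so wild-type values carry the wider counting error. Levels are the UMIs summed over the cells of a group and scaled to a common total (CPM), and shares of cells were also computed after 1000 UMIs had been drawn from every cell. Of the 5282 barcodes of the wild-type library, 25 also occurred in wild-type kidney at day 3, 5 of them in CD8 T cells. Barcodes of the knockout-labelled library were not used here. Pdcd1, the gene of PD-1 (chr1:94038305-94052553, GRCm38, minus strand), stood at 282 (267 to 298) CPM in the knockout-labelled library and 123 (102 to 147) CPM in the wild-type library in CD8 T cells. The deleted part of the gene is not given in the labels and the counted tags may lie outside it, so these counts check neither the genotype nor the label.

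CD8 T cells made up 31.2% (30.1 to 32.3%) of 6960 kept cells in the knockout-labelled library and 10.2% (9.40 to 11.1%) of 5212 in the wild-type library. Among cells with at least 2 CD3 UMIs the shares were 52.6% of 4134 in the knockout-labelled library and 17.3% of 3070 in the wild-type library. The share was higher in the knockout-labelled library on both denominators, and the sort can set either. Both CD8 chains were counted in 79.4% (77.6 to 81.1%) of the knockout-labelled and 75.4% (71.5 to 79.0%) of the wild-type cells. Cd8a, the chain that pairs with either partner, came without Cd8b1 in 10.9% of knockout-labelled and 14.8% of wild-type cells. Cd3e, a chain of the T cell receptor complex and part of the rule, stood at 1235 CPM in knockout-labelled and 1452 CPM in wild-type cells. At the edge of the rule, 379 knockout-labelled and 111 wild-type cells held exactly 2 CD8 UMIs, and 453 and 157 cells that met all else held 1 and stayed out. In the knockout-labelled library, 85.8% of cells just inside this edge and 74.0% just outside it had 2 or more Ccl5 UMIs. In the wild-type library these shares were 63.1% and 31.2%.

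Against CD4 T cells of the same library (at least 2 CD3 UMIs, a Cd4 UMI, no Cd8a, Cd8b1 or Trdc UMI), which numbered 321 in the knockout-labelled library and 565 in the wild-type library, the CD8 T cells carried a cytotoxic and chemokine programme in both libraries. Among 3815 genes with at least 100 UMIs in each library's pair of cell types, 113 (2.96%) were higher and 172 (4.51%) lower in CD8 T cells by 1.5 times or more in both libraries. Among the genes with the highest ratios in both were Gzma and Gzmk (granzymes A and K), the T-box factor Eomes, Ccl5, the inhibitory NK receptor Klrc1, Plek, the memory marker Ly6c2, Ccl4 and the granule protein Nkg7. Ccl5 and Gzmk were given as markers of these cells at the outset, so their values are a description. With 1 library per group, no ratio was tested.

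Gzma had 164 CPM in CD8 and 12.1 CPM in CD4 T cells in the knockout-labelled library, a log2 ratio of 3.77 (2.83 to 4.90). The wild-type library had 275 CPM in CD8 and 16.2 CPM in CD4 T cells, a log2 ratio of 4.09 (3.40 to 4.86). Of the Gzma UMIs in CD8 T cells, 10 cells held 49.3% in the knockout-labelled and 54.5% in the wild-type library. Gzmk had 210.3 CPM in CD8 and 24.2 CPM in CD4 T cells in the knockout-labelled library, and 223 CPM in CD8 and 8.10 CPM in CD4 T cells in the wild-type library. Both granzymes stood at 24.2 CPM or lower in CD4 T cells. Eomes had 251 CPM in CD8 and 24.2 CPM in CD4 T cells in the knockout-labelled library, and 187 CPM in CD8 and 1.80 CPM in CD4 T cells in the wild-type library. Ccl5 had 6509 CPM in CD8 and 892 CPM in CD4 T cells in the knockout-labelled library, and 5294 CPM in CD8 and 309 CPM in CD4 T cells in the wild-type library. Nkg7 had 1759.8 CPM in CD8 and 421 CPM in CD4 T cells in the knockout-labelled library, and 1569 CPM in CD8 and 97.2 CPM in CD4 T cells in the wild-type library. For Eomes, Ccl5, Nkg7 and Ly6c2 the intervals of the log2 ratio did not overlap between the libraries, with the higher ratio in the wild type. Nkg7 had 2.06 (1.90 to 2.23) in the knockout-labelled library and 4.01 (3.73 to 4.31) in the wild-type library. The share of all genes whose intervals lie apart is not given here, and intervals narrow as counts rise. In B cells, which should lack both genes, Ccl5 stood at 206 CPM in knockout-labelled and 41.9 CPM in wild-type cells, and Nkg7 at 90.4 CPM in knockout-labelled and 14.0 CPM in wild-type cells.

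The promoters of Gzmk, Gzma and Nkg7 are shown because these granule genes were higher in CD8 T cells in both libraries. They come from RefSeq (GRCm38.p6, 250 bases before to 50 after the gene start, 5′ to 3′ on the gene's strand). In GENCODE vM21 (GRCm38), Gzma spans chr13:113093825-113100981 and Gzmk chr13:113171608-113225908, both on the minus strand, and Nkg7 spans chr7:43437073-43438249 on the plus strand. The RefSeq starts of Gzmk and Nkg7 lie inside the longer GENCODE genes, and positions of matches count from the RefSeq start. Capitals mark matches on either strand to GGTGTGA (the core bound by T-box factors such as EOMES), TGTGGTT (RUNX), TGANTCA (AP-1) and GGG followed after 5 bases by CC (NF-kB).
Gzmk promoter (chr13:113180916-113181215, minus strand): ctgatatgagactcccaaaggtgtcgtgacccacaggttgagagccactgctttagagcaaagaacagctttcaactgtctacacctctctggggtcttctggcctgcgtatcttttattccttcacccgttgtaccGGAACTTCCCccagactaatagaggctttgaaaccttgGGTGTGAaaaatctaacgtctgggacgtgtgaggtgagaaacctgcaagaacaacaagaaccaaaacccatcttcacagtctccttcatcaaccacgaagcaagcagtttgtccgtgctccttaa
Gzma promoter (chr13:113100932-113101231, minus strand): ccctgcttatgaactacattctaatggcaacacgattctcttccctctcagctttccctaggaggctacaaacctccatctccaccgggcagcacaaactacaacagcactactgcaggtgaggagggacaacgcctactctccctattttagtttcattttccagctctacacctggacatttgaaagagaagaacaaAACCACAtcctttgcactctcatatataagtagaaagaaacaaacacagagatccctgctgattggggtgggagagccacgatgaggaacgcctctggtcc
Nkg7 promoter (chr7:43436888-43437187, plus strand): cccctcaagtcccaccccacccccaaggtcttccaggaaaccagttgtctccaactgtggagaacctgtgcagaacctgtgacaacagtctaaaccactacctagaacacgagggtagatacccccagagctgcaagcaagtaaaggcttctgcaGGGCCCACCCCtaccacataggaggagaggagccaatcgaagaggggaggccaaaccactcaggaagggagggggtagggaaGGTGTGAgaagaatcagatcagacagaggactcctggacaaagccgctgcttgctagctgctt
The Gzmk promoter held 1 T-box match, starting 75 bases before the gene start, and 1 NF-kB match. Gzma held 1 RUNX match, starting 51 bases before the start. Nkg7 held 1 T-box match, starting 13 bases before the start, and 2 NF-kB matches that overlap. Of 27025 promoters of this length, 3.96% held the T-box letters, 5.37% the RUNX letters, 7.93% the AP-1 letters and 50.4% the NF-kB letters. None of these 3 promoters held the AP-1 letters, and the Eomes and Klrc1 promoters held none of the 4 motifs. A match is a run of letters and shows no binding.

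Genes lower in CD8 than in CD4 T cells in both libraries were Tiam1, the TH2-type chemokine receptor Ccr4, Tnfsf11 (RANK ligand), Tnfsf8 (CD30 ligand), Ramp3, Tnfrsf4 (the costimulator OX40), Cpd, Cpm, the T cell adaptor Trat1 and Hlf. Tnfsf11 had 23.2 CPM in CD8 and 166 CPM in CD4 T cells in the knockout-labelled library, and 44.1 CPM in CD8 and 238 CPM in CD4 T cells in the wild-type library. Tnfrsf4 had 59.1 CPM in CD8 and 282 CPM in CD4 T cells in the knockout-labelled library, and 22.6 CPM in CD8 and 371 CPM in CD4 T cells in the wild-type library. These ligands and receptors of T cell help thus stood higher in CD4 T cells. Ccr4 had 3.50 CPM in CD8 and 115 CPM in CD4 T cells in the knockout-labelled library, and 35.9 CPM in CD8 and 247 CPM in CD4 T cells in the wild-type library.

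**Figure D1:**
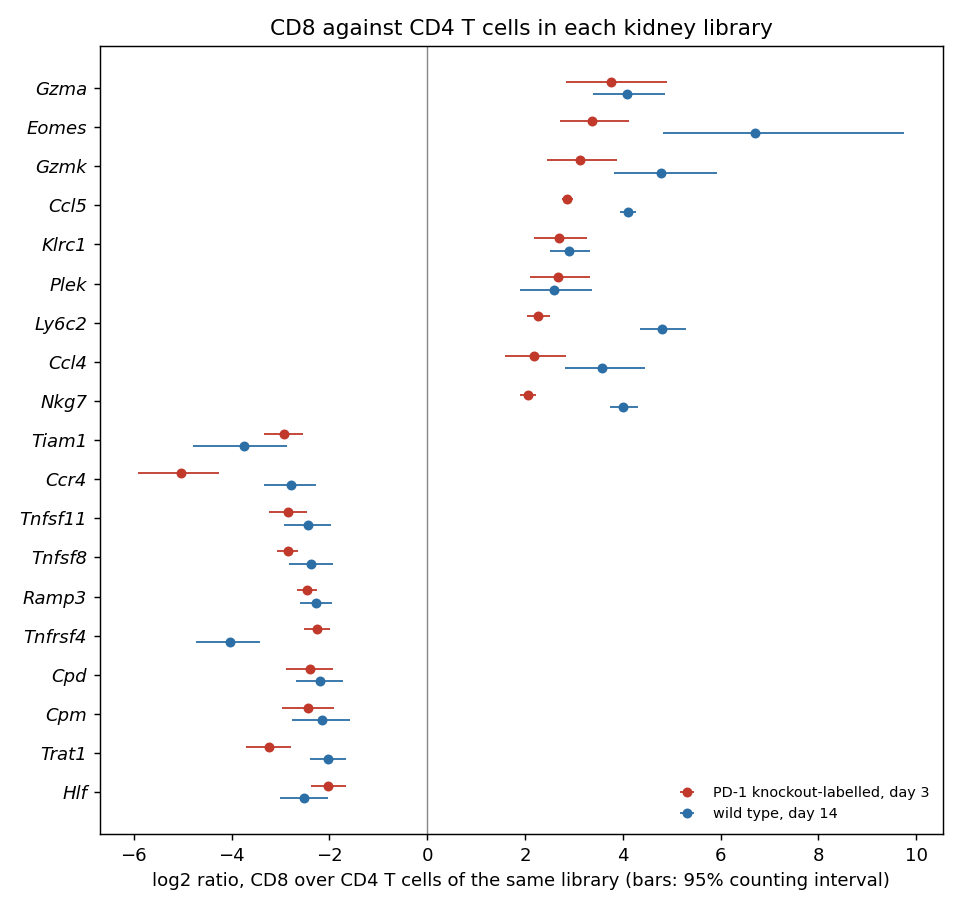
Each row is a gene, and the axis gives its log2 ratio of CD8 over CD4 T cells in the PD-1 knockout-labelled library (red, upper point) and the wild-type library (blue, lower point), with 95% counting intervals. The upper genes, from Gzma to Nkg7, lie right of 0 and the lower ones, from Tiam1 on, left of 0 in both libraries.

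By gene list, most cytotoxic granule genes were higher in CD8 than in CD4 T cells. In the knockout-labelled library, 8 of 10 measured members (Gzma, Gzmb, Gzmk, Prf1, Nkg7, Ctsw, Cst7 and Fasl) were at least 1.5 times higher in CD8 T cells, and none lower, where 9.52% of all genes were higher and 7.11% lower. The wild-type library had 7 of 9 higher and none lower, where 6.76% of all genes were higher and 8.87% lower. The medians of the log2 ratios were 1.99 and 2.38, beside 0.04 and 0.00 over all genes. NK receptor genes were higher in 7 of 9 measured members in the knockout-labelled library and 5 of 6 in the wild-type library. In each library 1 member was at least 1.5 times lower, Tyrobp in the knockout-labelled and Klrg1 in the wild-type library. NF-kB feedback genes went the other way, with 5 of 10 and 7 of 9 members at least 1.5 times lower in CD8 T cells and none higher. Immediate early genes were lower in 8 of 15 and 7 of 14 members, and Dusp2, a phosphatase of MAP kinases, was higher in both libraries.

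Ccl5 was counted in nearly all CD8 T cells of the knockout-labelled library and in fewer of the wild-type library. Cells with 2 or more Ccl5 UMIs were 91.4% (90.1 to 92.5%) in the knockout-labelled library and 74.1% (70.1 to 77.7%) in the wild-type library. With 1000 UMIs drawn per cell, which left out 68 and 28 cells, the shares were 82.6% (80.9 to 84.2%) and 67.7% (63.4 to 71.7%). The higher share in the knockout-labelled library therefore remained at equal depth. Among CD4 T cells the shares were 30.8% in the knockout-labelled library and 8.32% in the wild-type library. Among B cells, at median depths of 1626 and 1377.5 UMIs, they were 1 of 64 cells (1.56%) and 0 of 82, which allows a share of up to 3.66% when 3 counts are taken as the limit that a count of 0 allows. A single Ccl5 UMI was found in 35.9% of B cells in the knockout-labelled library and 7.32% in the wild-type library, so 1 UMI was not read as expression. The median was 11 Ccl5 UMIs per CD8 T cell in the knockout-labelled library and 7 in the wild-type library. Over all CD8 T cells the level was 6509 CPM in knockout-labelled and 5294 CPM in wild-type cells, a log2 ratio of 0.30 (0.26 to 0.34).

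**Figure D2:**
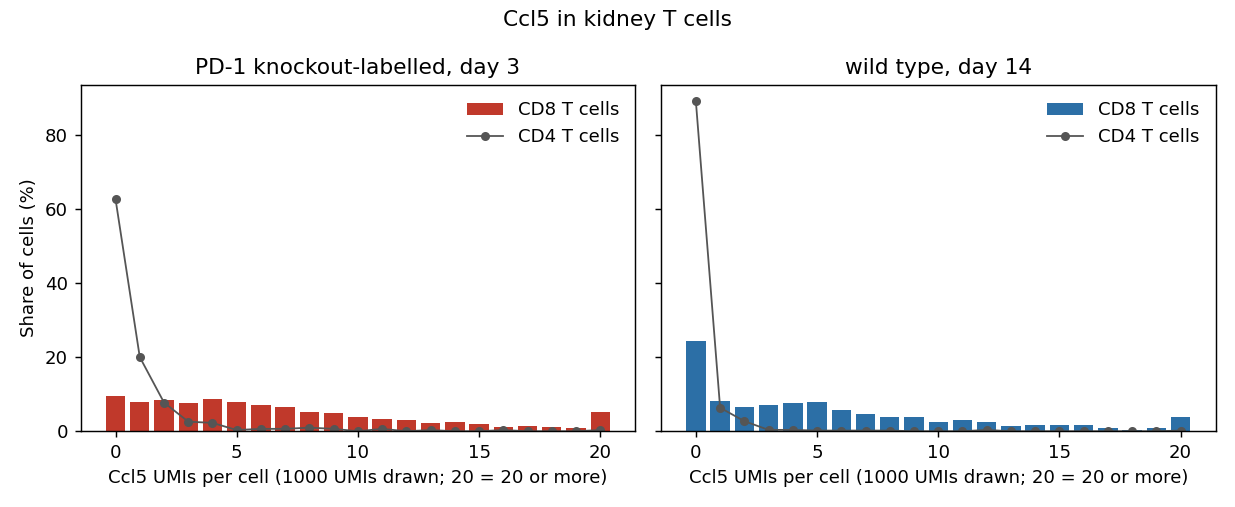
Bars give the share of CD8 T cells (%) with each number of Ccl5 UMIs after 1000 UMIs were drawn per cell, and the grey line gives CD4 T cells, in the PD-1 knockout-labelled library (left) and the wild-type library (right). Cells without a Ccl5 UMI are 9.40% of CD8 T cells on the left and 24.2% on the right.

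Between the libraries, 6467 genes had at least 100 UMIs in the CD8 T cells of both together. Of these, 423 (6.54%) were higher and 338 (5.23%) lower in the knockout-labelled library by 1.5 times or more. The median log2 ratio was -0.02, and 90% of genes lay between -0.59 and 0.66. Genes with the highest ratios fell into tubule transcripts, MHC class II genes and a few T cell genes.

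The tubule transcripts were Spp1 (osteopontin), Kap, Fxyd2 and Clu, joined by Atp1b1 and Tsc22d1. Atp1b1 was also counted in B cells, at 164 CPM in knockout-labelled and 231 CPM in wild-type cells. Spp1 stood at 527 (506 to 549) CPM in the knockout-labelled library and 9.24 (4.23 to 17.5) CPM in the wild-type library. Of its 2410 UMIs in the knockout-labelled library, 1979 came from 1 cell, as did 713 of 757 Kap UMIs and 703 of 963 Clu UMIs. The highest cell for each gene held 120 of 240 Fxyd2, 125 of 233 Atp1b1 and 164 of 395 Tsc22d1 UMIs. Summed over 9 kidney epithelium markers, the knockout-labelled library had 795 CPM and the wild-type library 16.4 CPM, with Umod, Slc34a1, Lrp2, Miox and Slc12a1 among those at 0 in the wild-type library. A set of 2 of 2174 knockout-labelled cells, at a median of 27511.5 UMIs, held 89.0% of these UMIs. A UMI of Spp1, Kap, Clu, Fxyd2 or Umod was found in 25.5% of the knockout-labelled and 4.14% of the wild-type CD8 T cells. Clu and Fxyd2 are not among the 9 markers, so this share does not describe the remaining UMIs of those markers. The MHC class II genes Cd74, H2-Ab1, H2-Eb1 and H2-Aa, which B cells express, were also among the higher genes, with Cd74 at 200.2 (187 to 214) CPM in the knockout-labelled library and 51.3 (38.1 to 67.7) CPM in the wild-type library. In CD4 T cells of the same libraries Cd74 stood at 588 CPM in knockout-labelled and 91.8 CPM in wild-type cells, and in B cells at 11175 CPM in knockout-labelled and 6972 CPM in wild-type cells. Whether the tubule and B cell transcripts came from free RNA or mixed droplets was not tested.

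The inhibitory receptor and exhaustion genes had members that were higher in the knockout-labelled library and none that was lower. Of 10 measured members, 4 were higher and 0 lower by at least 1.5 times in the knockout-labelled library, with a median log2 ratio of 0.35. Shares over all genes were 6.54% higher and 5.23% lower, and 7.8% and 5.59% in cells with 2 or more Ccl5 UMIs. Among cells with 2 or more Ccl5 UMIs 2 of 10 members, Pdcd1 and Tox, were higher, and Nr4a2 and Havcr2 lay within 1.5 times at log2 ratios of 0.50 and 0.35. Tox, a nuclear factor that sustains T cells under chronic stimulation, stood at 329 (312 to 346) CPM in the knockout-labelled library and 132 (111 to 157) CPM in the wild-type library, a log2 ratio of 1.31 (1.05 to 1.58). Pdcd1 had a log2 ratio of 1.20 (0.93 to 1.48). A UMI of Tox was found in 26.2% of knockout-labelled and 11.5% of wild-type cells at equal depth, and one of Pdcd1 in 24.3% of knockout-labelled and 11.5% of wild-type cells. Shares of cells and levels thus differed in the same direction. Nr4a2, a nuclear receptor induced by T cell receptor signals, had 624 CPM in knockout-labelled and 400.4 CPM in wild-type cells, and Havcr2 (TIM-3) 28.2 CPM in knockout-labelled and 17.5 CPM in wild-type cells, with an interval of its log2 ratio, 0.69 (-0.04 to 1.52), that spans 0. Tigit had 257 CPM in knockout-labelled and 182 CPM in wild-type cells and a log2 ratio of 0.50 (0.27 to 0.74), short of 1.5 times. Ctla4, another inhibitory receptor, had 289.7 CPM in knockout-labelled and 277 CPM in wild-type cells, and its log2 ratio of 0.06 (-0.13 to 0.26) spanned 0.

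In CD4 T cells of the same libraries Pdcd1 and Tox differed less, and Tigit and Ctla4 were lower in the knockout-labelled library. Pdcd1 stood at 130.2 CPM in knockout-labelled and 141 CPM in wild-type CD4 T cells, and Tox at 113 CPM in knockout-labelled and 118 CPM in wild-type CD4 T cells. The log2 ratios there were -0.12 (-0.50 to 0.26) and -0.06 (-0.48 to 0.34), so both intervals of the CD8 ratio lay above those of the CD4 ratio. How many of all genes show such a gap is not given here. Tigit stood at 72.5 CPM in knockout-labelled and 140.3 CPM in wild-type CD4 T cells, a log2 ratio of -0.95 (-1.43 to -0.50), and Ctla4 had a log2 ratio of -1.12 (-1.30 to -0.95). Pdcd1 UMIs were 0 in the B cells of both libraries. Rgs16, a regulator of G protein signalling induced in activated T cells, had 181 (168 to 193) CPM in the knockout-labelled library and 43.1 (31.1 to 58.3) CPM in the wild-type library in CD8 T cells, a log2 ratio of 2.07 (1.62 to 2.55). Coch, which encodes cochlin, had 53.4 (46.9 to 60.5) CPM in the knockout-labelled library and 0 UMIs in the wild-type library, at least 17.3-fold higher when a floor of 3 counts stands for the wild-type CD8 T cells. Gas7 had 63.5 CPM in knockout-labelled and 15.4 CPM in wild-type cells.

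Among cytotoxic granule genes, Gzma, Gzmb and Lamp1 were lower and Prf1 higher in the knockout-labelled library. Of 10 measured members, 1 was higher and 3 lower by at least 1.5 times in the knockout-labelled library, with a median log2 ratio of -0.05. With 6.54% of all genes higher and 5.23% lower, a single higher member is near the share over all genes. Among cells with 2 or more Ccl5 UMIs 0 of 10 were higher, and Gzma, Gzmb and Lamp1 were lower, with Prf1 at a log2 ratio of 0.41. Gzmb, whose protease starts apoptosis in target cells, stood at 235 (221 to 249) CPM in the knockout-labelled library and 412 (372 to 454) CPM in the wild-type library, a log2 ratio of -0.81 (-0.98 to -0.64). Gzma had 164 CPM in knockout-labelled and 275 CPM in wild-type cells, a log2 ratio of -0.74 (-0.95 to -0.54), and Lamp1 65.4 CPM in knockout-labelled and 108 CPM in wild-type cells. Few cells set the Gzma level: 1 knockout-labelled cell held 120 of 751 UMIs, and 10 cells held 49.3% in the knockout-labelled and 54.5% in the wild-type library. Prf1, the pore-forming perforin, had 127 CPM in knockout-labelled and 84.2 CPM in wild-type cells. Gzmk had 210.3 CPM in knockout-labelled and 223 CPM in wild-type cells, and its log2 ratio of -0.08 (-0.30 to 0.14) spanned 0. Nkg7, Srgn, Ctsw and Cst7 lay within 1.5 times, with log2 ratios between -0.01 for Srgn and 0.35 for Ctsw.

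Residency genes were lower in the knockout-labelled library more often than higher. Of 12 measured members, 1 was higher and 4 lower by at least 1.5 times in the knockout-labelled library, with a median log2 ratio of -0.35. Beside these counts, 6.54% of all genes were higher and 5.23% lower. Without the cells that held type 17 or gamma-chain UMIs the median was -0.10. Itga1 (CD49a, a collagen receptor; chr13:114953096-115101964) stood at 67.6 (60.3 to 75.6) CPM in the knockout-labelled library and 257 (226 to 291) CPM in the wild-type library, a log2 ratio of -1.92 (-2.17 to -1.68). A UMI of it was found in 5.89% of knockout-labelled and 15.9% of wild-type cells at equal depth. Itgae (CD103, which binds E-cadherin) had 21.4 CPM in knockout-labelled and 71.9 CPM in wild-type cells, Rgs10 47.3 CPM in knockout-labelled and 146 CPM in wild-type cells, and Rgs1, which limits chemokine responses, 1028 CPM in knockout-labelled and 1762 CPM in wild-type cells. All of these were lower in the knockout-labelled library, while Bhlhe40, a transcription factor of resident T cells, was higher at 863 CPM in knockout-labelled and 508 CPM in wild-type cells. Cd69, the early activation and retention receptor, had 352 CPM in knockout-labelled and 373 CPM in wild-type cells, and its log2 ratio of -0.08 (-0.25 to 0.09) spanned 0. Among CD4 T cells Itga1 stood at 22.8 CPM in knockout-labelled and 20.7 CPM in wild-type CD4 T cells.

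Among chemokine receptors, Ccr2 and Cxcr4 were lower and Cxcr3 and Cx3cr1 higher in the knockout-labelled library. Of 7 measured members, 2 were higher and 3 lower by at least 1.5 times in the knockout-labelled library, with a median log2 ratio of -0.43. The median was 0.02 when 1 CD8 UMI was enough, so its sign depends on that bar. All genes together had 6.54% higher and 5.23% lower. Among cells with 2 or more Ccl5 UMIs 1 of 7 members, Cx3cr1, was higher, and Cxcr3 lay within 1.5 times at a log2 ratio of 0.55. Ccr2, the receptor for CCL2 (chr9:124101950-124113557), stood at 167 (155 to 179) CPM in the knockout-labelled library and 477 (435 to 523) CPM in the wild-type library, a log2 ratio of -1.52 (-1.69 to -1.35), with a UMI in 11.2% of knockout-labelled and 30.2% of wild-type cells. Cxcr4, the receptor for CXCL12, had 435 CPM in knockout-labelled and 689 CPM in wild-type cells. Both receptors were thus lower in the knockout-labelled library. Cxcr3, which guides T cells to interferon-induced chemokines, stood at 278 (263 to 294) CPM in the knockout-labelled library and 168 (144 to 196) CPM in the wild-type library. Cx3cr1, the fractalkine receptor of circulating effector cells, stood at 76.6 (68.8 to 85.0) CPM in the knockout-labelled library and 25.7 (16.6 to 37.9) CPM in the wild-type library. Cxcr6, which binds CXCL16, had 277 CPM in knockout-labelled and 372 CPM in wild-type cells, short of 1.5 times. In CD4 T cells Ccr2 stood at 417 CPM in knockout-labelled and 430.0 CPM in wild-type CD4 T cells, a log2 ratio of -0.04 (-0.25 to 0.17).

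**Figure D3:**
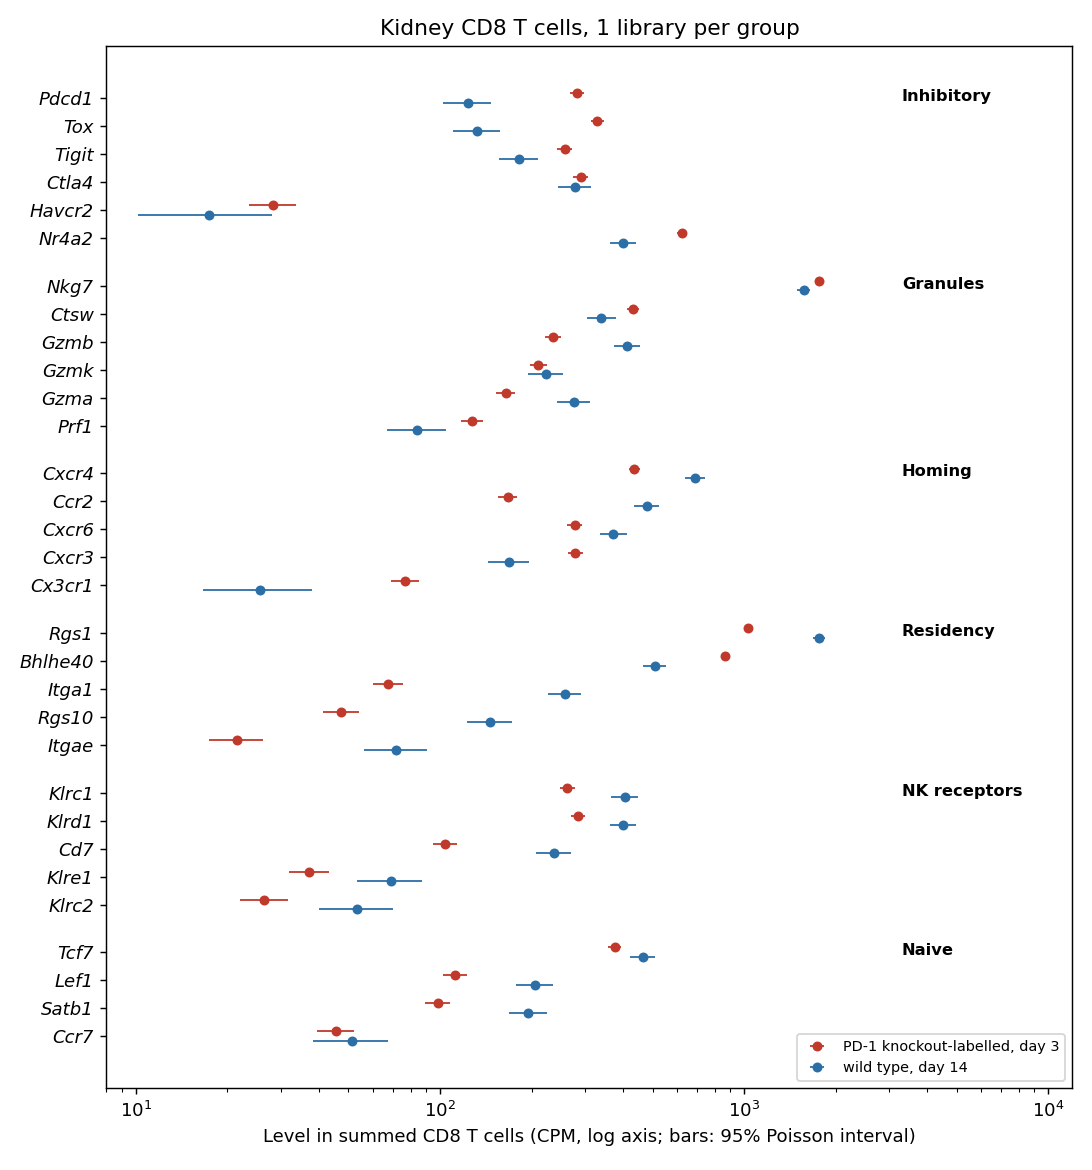
Levels in summed CD8 T cells (CPM, log axis) with 95% Poisson intervals, for the PD-1 knockout-labelled library (red, upper point of each gene) and the wild-type library (blue, lower point). Red lies right of blue for Pdcd1, Tox and Cx3cr1, and left of it for Ccr2, Itga1, Itgae and the 5 NK receptor genes.

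NK receptor genes were lower in the knockout-labelled library or within 1.5 times. Of 10 measured members, 0 were higher and 5 lower by at least 1.5 times in the knockout-labelled library, with a median log2 ratio of -0.56. Beside this list, 6.54% of all genes were higher and 5.23% lower. Klrc1 (NKG2A) and Klrd1 (CD94), the paired chains of an inhibitory receptor for Qa-1, lie in the NK gene cluster of chromosome 6. Klrc1 stood at 262 (247 to 277) CPM in the knockout-labelled library and 404 (366 to 446) CPM in the wild-type library, a log2 ratio of -0.63 (-0.79 to -0.46). Klrd1 had 285 CPM in knockout-labelled and 400.4 CPM in wild-type cells, a log2 ratio of -0.49 (-0.66 to -0.33), just short of 1.5 times. Klrc2, Klre1, Klrg1 and Cd7 were lower as well, Cd7 with 104 CPM in knockout-labelled and 236 CPM in wild-type cells. Klrk1 (NKG2D) had 227 CPM in knockout-labelled and 272 CPM in wild-type cells, and Fcer1g, a signalling adaptor, 83.8 CPM in knockout-labelled and 72.9 CPM in wild-type cells.

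Naive and central memory genes, which mark cells that circulate through lymph nodes, included Lef1 and Satb1 among those lower in the knockout-labelled library. Of 15 measured members, 0 were higher and 3 lower by at least 1.5 times in the knockout-labelled library, with a median log2 ratio of -0.17. Lef1, a transcription factor of naive T cells, stood at 112 (103 to 122) CPM in the knockout-labelled library and 205 (178 to 236) CPM in the wild-type library, with a UMI in 10.1% of knockout-labelled and 16.7% of wild-type cells. Satb1, a chromatin organiser, had 98.2 CPM in knockout-labelled and 195 CPM in wild-type cells. Tcf7, Il7r, Ccr7 and S1pr1 lay within 1.5 times, with log2 ratios of -0.31, -0.15, -0.17 and 0.17. Effector memory genes went both ways, with Cxcr3 and Cx3cr1 higher and Klrg1 among the lower: of 16 measured members, 2 were higher and 2 lower by at least 1.5 times in the knockout-labelled library, with a median log2 ratio of 0.08. Both lists stand beside 6.54% higher and 5.23% lower over all genes.

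Cells without a Ccl5 UMI carried type 17 genes at lower levels in the knockout-labelled than in the wild-type library. They numbered 89 in the knockout-labelled library and 107 in the wild-type library. Tmem176a, high in type 17 lymphocytes, stood at 188 (132 to 259) CPM in the knockout-labelled library and 626 (525 to 741) CPM in the wild-type library in cells without Ccl5, and at 101 CPM in knockout-labelled and 52.7 CPM in wild-type cells with 2 or more Ccl5 UMIs. Its neighbour Tmem176b stood at 248 CPM in knockout-labelled and 691 CPM in wild-type cells without Ccl5, and at 153 CPM in knockout-labelled and 57.0 CPM in wild-type cells with it. Maf, a transcription factor of several T cell programmes, had 183 CPM in knockout-labelled and 626 CPM in wild-type cells without Ccl5. These genes thus stood highest in wild-type cells without Ccl5. Il7r, the receptor for interleukin-7, stood at 2114 CPM in knockout-labelled and 2904 CPM in wild-type cells without Ccl5 and at 1406 CPM in knockout-labelled and 1179.7 CPM in wild-type cells with it. Over all CD8 T cells, at least 3 UMIs of Tmem176a and Tmem176b were held by 2.85% (2.19 to 3.64%) in the knockout-labelled library and 9.77% (7.39 to 12.6%) in the wild-type library. Because Ccl5 split the cells, these levels describe the strata and no test was made.

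Restricting the comparison to cells with 2 or more Ccl5 UMIs (1987 in the knockout-labelled library and 394 in the wild-type library) moved some ratios away from 0 and others to near 0. In that stratum 7.8% of 6117 genes were higher and 5.59% lower by 1.5 times or more. Log2 ratios there were 1.13 (0.82 to 1.45) for Pdcd1, 1.27 (0.97 to 1.57) for Tox, -2.22 (-2.47 to -1.96) for Itga1 and -1.64 (-1.82 to -1.45) for Ccr2. Gzmb, Gzma and Klrc1 had -1.11 (-1.28 to -0.94), -1.09 (-1.29 to -0.88) and -0.93 (-1.11 to -0.76). The ratios of Itga1, Ccr2, Gzmb, Gzma and Klrc1 were thus further from 0 than over all CD8 T cells, and those of Pdcd1 and Tox slightly nearer. The B cell kinase Blk, Ramp1 and the keratin Krt83, all among the lowest ratios over all CD8 T cells, had -0.38 (-1.26 to 0.61), -0.06 (-0.86 to 0.84) and -0.53 (-1.16 to 0.15), intervals that span 0. Their level in wild-type cells without Ccl5 was 162, 264 and 209 CPM. Ifngr2, a chain of the interferon gamma receptor, had a log2 ratio of -1.28 (-2.04 to -0.47) with Ccl5 and -2.23 (-2.71 to -1.75) over all cells. Trat1, at 14.7 CPM in knockout-labelled and 76.0 CPM in wild-type cells over all cells, kept a log2 ratio of -2.48 (-3.04 to -1.92). Dgkz, Rnf10 and Rgs10 were also lower in both sets of cells, with -1.49, -1.49 and -1.56 among Ccl5-bearing cells.

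**Figure D4:**
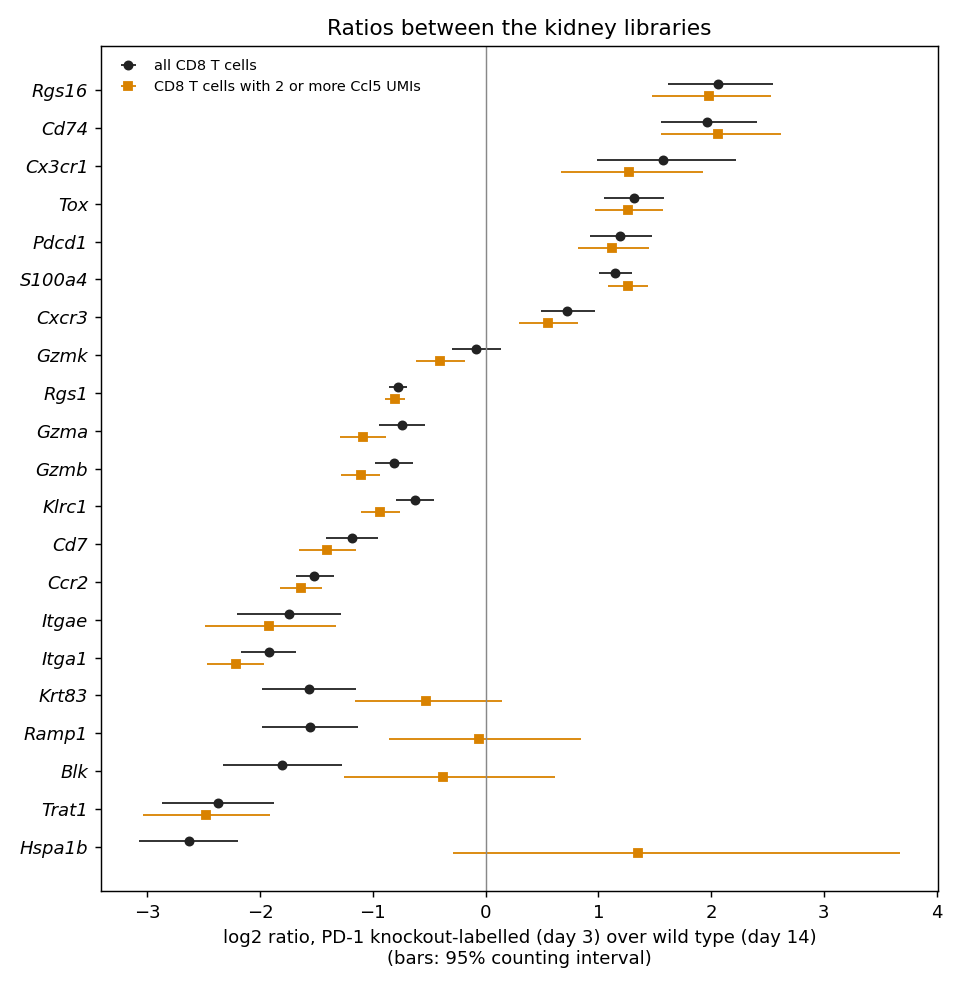
Log2 ratios of the PD-1 knockout-labelled over the wild-type library with 95% counting intervals, in all CD8 T cells (black circles, upper) and in those with 2 or more Ccl5 UMIs (orange squares, lower). The orange points of Krt83, Ramp1 and Blk have intervals that reach across 0, while those of Itga1, Ccr2, Tox and Pdcd1 stay on the side of the black points, and Hspa1b changes side with an interval across 0.

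Hspa1b, an inducible chaperone with a close copy in Hspa1a, had 17.1 CPM in knockout-labelled and 106 CPM in wild-type cells and a log2 ratio of -2.63 (-3.07 to -2.19), where 66 of its 103 wild-type UMIs came from 1 cell. That ratio turned round to 1.23 at 1000 UMIs per cell and to 1.35 in Ccl5-bearing cells. Hsph1, a chaperone of the same response, had 272 (257 to 287) CPM in the knockout-labelled library and 124 (103 to 148) CPM in the wild-type library. Of 8 measured members of the heat shock list, 1 was higher and 1 lower by at least 1.5 times in the knockout-labelled library, with a median log2 ratio of 0.24. This list and the 2 that follow stand beside 6.54% higher and 5.23% lower over all genes. NF-kB feedback genes were higher or within 1.5 times: of 10 measured members, 2 were higher and 0 lower by at least 1.5 times in the knockout-labelled library, with a median log2 ratio of 0.44. Nfkbia, the inhibitor that NF-kB itself induces, had 756 CPM in knockout-labelled and 457 CPM in wild-type cells, and Nfkb2 99.3 CPM in knockout-labelled and 46.2 CPM in wild-type cells. In Ccl5-bearing cells 5 of 9 measured members of that list were higher and none lower, where 7.8% of all genes were higher and 5.59% lower. In the immediate early list, of 15 measured members, 2 were higher and 1 lower by at least 1.5 times in the knockout-labelled library, with a median log2 ratio of -0.02. Atf3 and Fosb were the higher members, with 44.0 CPM in knockout-labelled and 16.4 CPM in wild-type cells for Atf3, and Btg2 the lower, with 369.6 CPM in knockout-labelled and 580.1 CPM in wild-type cells.

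Interferon response genes were lower or within 1.5 times. Of 16 measured members, 0 were higher and 5 lower by at least 1.5 times in the knockout-labelled library, with a median log2 ratio of -0.25. For this list and the next, 6.54% higher and 5.23% lower are the shares over all genes. The lower members were Ifit3, Isg15, Isg20, Gbp7 and Slfn1, with Ifit3 at 65.9 (58.6 to 73.7) CPM in the knockout-labelled library and 111 (91.0 to 134) CPM in the wild-type library and Isg15 at 19.0 CPM in knockout-labelled and 48.3 CPM in wild-type cells. Gbp2 and Ifi47 lay on the other side of 0 within 1.5 times, with log2 ratios of 0.23 and 0.20. In the list of S100, galectin and adhesion genes, of 14 measured members, 2 were higher and 0 lower by at least 1.5 times in the knockout-labelled library, with a median log2 ratio of 0.33. S100a4 had 953 (925 to 982) CPM in the knockout-labelled library and 430.2 (390.0 to 473) CPM in the wild-type library, a log2 ratio of 1.15 (1.0 to 1.30), and Lgals1 (galectin-1) 534 CPM in knockout-labelled and 341 CPM in wild-type cells.

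Other lists held few members past 1.5 times. T cell receptor and coreceptor genes had 1 higher and 0 lower among 16, the costimulator Cd27 with 143 CPM in knockout-labelled and 93.4 CPM in wild-type cells. Effector cytokines had 1 higher and 0 lower among 6, Areg with 26.5 CPM in knockout-labelled and 13.3 CPM in wild-type cells, and Ifng, the cytokine of type 1 responses, had 54.0 CPM in knockout-labelled and 46.2 CPM in wild-type cells. Chemokines had 1 higher and 0 lower among 6, Ccl1 with 44.0 CPM in knockout-labelled and 24.6 CPM in wild-type cells. Cell cycle genes had 1 of 11 in each direction, Mcm3 higher and Stmn1 lower, and Mki67 had 45.1 CPM in knockout-labelled and 54.4 CPM in wild-type cells. A single wild-type cell held 21 of the 65 Stmn1 UMIs of that library's CD8 T cells. Glucocorticoid response genes had 1 higher (Fkbp5) and 2 lower (Ddit4 and Cxcr4) among 10. Innate-like T cell genes had Klrb1b higher and Blk lower among 6, glycolysis genes had Eno1 lower among 12, and none of 10 MHC class I genes passed 1.5 times. Over all genes the shares were 6.54% higher and 5.23% lower.

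Markers of other cells, summed over each list, were compared in the same CD8 T cells. B cell markers summed to 413 CPM in the knockout-labelled and 97.5 CPM in the wild-type library, with Cd79a, Ms4a1 and Ebf1 among those at 0 in the wild type. Type 17 markers summed to 317 CPM in the knockout-labelled and 561 CPM in the wild-type library, and gamma-delta T cell markers, with Trdc at 0 by the rule, to 239 CPM in the knockout-labelled and 219.7 CPM in the wild-type library. ILC1 and NK cell markers, several of which CD8 T cells share, summed to 647 CPM in the knockout-labelled and 639 CPM in the wild-type library, and ILC2 markers to 366 CPM in the knockout-labelled and 321 CPM in the wild-type library. Over all CD8 T cells the B cell list was thus higher and the type 17 list lower in the knockout-labelled library. In cells with 2 or more Ccl5 UMIs the type 17 list ran the other way. It summed there to 286 CPM in the knockout-labelled and 148 CPM in the wild-type library. The values below are again over all CD8 T cells. Markers of CD4 and regulatory T cells summed to 137 CPM in the knockout-labelled and 166 CPM in the wild-type library, and erythroid markers to 77.7 CPM in the knockout-labelled and 4.11 CPM in the wild-type library. Dendritic cell markers summed to 59.7 CPM in the knockout-labelled and 95.5 CPM in the wild-type library, and endothelial markers to 48.8 CPM in the knockout-labelled and 56.5 CPM in the wild-type library. Monocyte and macrophage markers summed to 25.2 CPM in the knockout-labelled and 12.3 CPM in the wild-type library, with Adgre1 at 0 in both, and neutrophil markers to 7.0 CPM in the knockout-labelled and 0 CPM in the wild-type library. Their part in the differences between the libraries was not tested.

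Within a library, genes of the CD8 T cells were counted together in uneven ways. The pairs below were picked after the cells had been examined, and shares are at 1000 UMIs per cell, where chance and shared depth also act. Gzma was found in 15.1% (11.2 to 19.8%) of 284 cells with Gzmb, against 3.68% (2.86 to 4.65%) of the cells without it in the knockout-labelled library. In the wild-type library the shares were 27.7% (19.3 to 37.5%) of 101 cells with Gzmb, against 4.47% (2.67 to 6.97%) of the cells without it. Gzma was thus more frequent in cells with Gzmb in both libraries. Gzmb was found in 19.7% (15.8 to 24.2%) of 365 cells with Gzmk, against 12.2% (10.7 to 13.8%) of the cells without it in the knockout-labelled library, and in 35.4% (26.0 to 45.6%) of 99 cells with Gzmk, against 16.3% (12.8 to 20.3%) of the cells without it in the wild-type library. Eomes was found in 25.8% (21.3 to 30.6%) of 365 cells with Gzmk, against 15.5% (13.8 to 17.3%) of the cells without it in the knockout-labelled library, and in 24.2% (16.2 to 33.9%) of 99 cells with Gzmk, against 10.9% (8.01 to 14.3%) of the cells without it in the wild-type library. Cells with Gzmk thus held Gzmb and Eomes more often in both libraries. Tmem176a was found in 14.8% (9.95 to 20.7%) of 183 cells with Tmem176b, against 5.10% (4.16 to 6.18%) of the cells without it in the knockout-labelled library, and in 53.1% (40.2 to 65.7%) of 64 cells with Tmem176b, against 5.45% (3.53 to 8.01%) of the cells without it in the wild-type library.

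**Figure D5:**
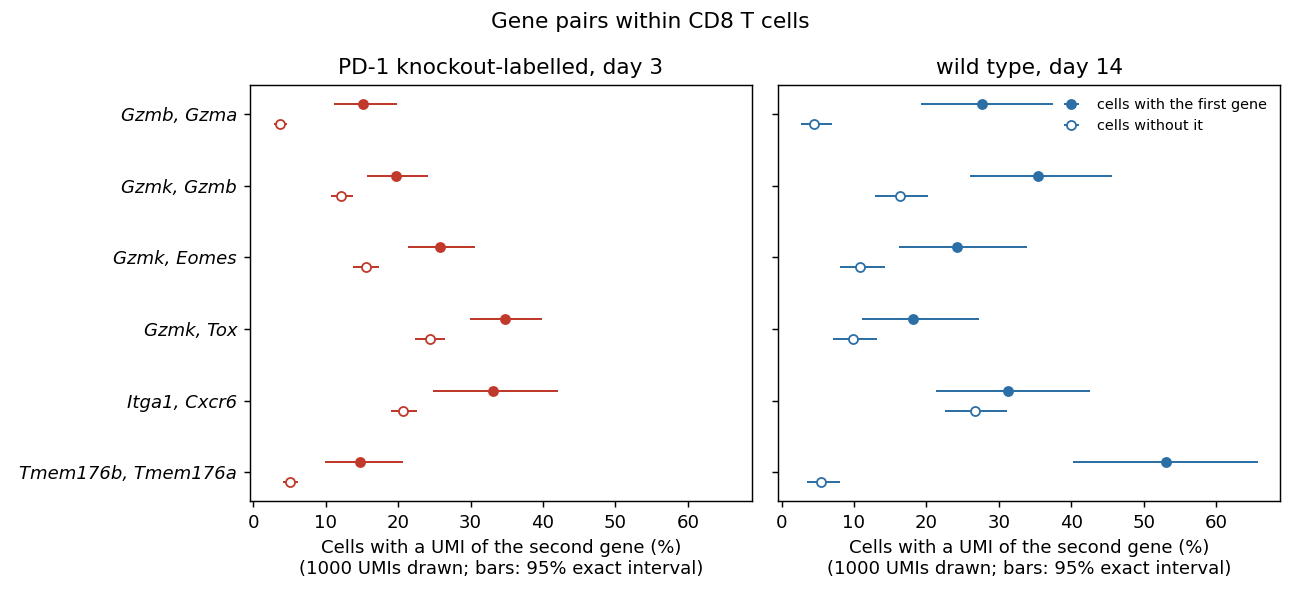
Share of CD8 T cells (%) with a UMI of the second gene of each pair, among cells with the first gene (filled) and without it (open), after 1000 UMIs were drawn per cell, with exact 95% intervals, in the PD-1 knockout-labelled library (left) and the wild-type library (right). The pair of Tmem176b and Tmem176a is wider apart in the wild-type library, with 53.1% of cells with Tmem176b.

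In the knockout-labelled library the T cell receptor beta segment Trbv12-1 (chr6:41113550-41114067) held 137 of 410 UMIs of alpha and beta V segments in CD8 T cells, 33.4% (28.9 to 38.2%). For the wild-type library the count was 5 of 108, 4.63% (1.52 to 10.5%). CD4 T cells had 0 of 56 such UMIs in the knockout-labelled library, which allows a share of up to 5.36% by the limit of 3 counts, and 1 of 125 in the wild-type library. The V UMIs came from 344 knockout-labelled and 96 wild-type CD8 T cells, and near-identical segments such as Trbv12-2 may share reads with it. Coch UMIs lay in 134 CD8 T cells of the knockout-labelled library. Before any draw, 20.1% of these held a Trbv12-1 UMI, against 4.26% of the other knockout-labelled CD8 T cells. At 1000 UMIs, Trbv12-1 was found in 8.51% (3.75 to 16.1%) of 94 cells with Coch, against 2.44% (1.81 to 3.21%) of the cells without it. Havcr2 was found in 16% (9.22 to 24.9%) of 94 cells with Coch, against 1.94% (1.38 to 2.64%) of the cells without it, and Tnfrsf4 in 16% (9.22 to 24.9%) of 94 cells with Coch, against 4.57% (3.70 to 5.58%) of the cells without it. Cells with Coch thus carried Havcr2 and Tnfrsf4 more often. Coch was also counted in 2 of 64 B cells of the knockout-labelled library. These genes were chosen after their values were seen.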

How the data were processed

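Single-cell RNA was counted in 4 libraries, 2 of them kidney. The deposited values are UMI counts per gene and cell. Per the submitters' processing notes, CASAVA 1.8, UMI-tools, Seurat and mm10 were used, and the sources used here name no aligner or annotation. Doublet treatment is likewise not given, no doublet caller was run here, and one alternative left out cells with signs of a second cell. Of 31253 genes, 31184 matched GENCODE vM21. The wild-type kidney matrix has no gene names, and those of the remaining libraries were used. Log levels of genes then correlated at 0.992 across genes with the knockout-labelled library, and at 0.209 with the order shifted by 1 gene.

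Counts were summed over the cells of a group and scaled to a common total (CPM; Python 3.11.15, numpy 2.4.6, scipy 1.17.1, pandas 2.3.3, matplotlib 3.10.9). Genes of the gate were left out of calls between groups, and counts of genes and of list members needed at least 100 UMIs in both groups together. Some single ratios named here rest on fewer UMIs, such as Blk and Hspa1b in Ccl5-bearing cells and Cpm between the libraries. Intervals are exact 95% Poisson intervals for levels, Clopper-Pearson for shares and exact binomial for ratios. Reads without separate mice do not measure biological spread, so intervals cover counting error only. The script recovered known changes in simulated counts. The genes named are the 12 highest and 12 lowest ratios between libraries and the 10 highest and 10 lowest between CD8 and CD4 T cells, at 50 CPM or more in the higher group, without predicted, receptor-segment, haemoglobin, ribosomal, mitochondrial and sex-linked genes, plus the markers and up to 5 members of each list. Members and lists were chosen with earlier results of these data known. Alternatives changed the CD8 and Ccl5 thresholds, mitochondrial limit, doublet signs, depth, gene floor and scaling. The day 3 wild-type kidney library was not analysed here beyond its barcodes. Results of some genes are not reported here.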

Additional observations from a re-analysis of the deposited data

Results flagged for a closer look

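For 6 genes the ratio of CD8 over CD4 T cells lay on opposite sides of 0 in the libraries, past 1.5 times and with intervals that exclude 0 in each. For scale, 2.96% of 3815 genes were higher and 4.51% lower by 1.5 times or more in both libraries. How many genes counting error alone would place on opposite sides is not given here. The difference between the libraries was not tested. Rgs16 had a log2 ratio of 0.963 in the knockout-labelled library and -1.92 in the wild-type library. Faim, an apoptosis inhibitor, had 1.1 in the knockout-labelled library and -0.81 in the wild-type library. Gnl2, a nucleolar GTPase, had 0.747 in the knockout-labelled library and -0.67 in the wild-type library. Pkp4 had 0.585 in the knockout-labelled library and -0.831 in the wild-type library. The ratios of Stmn1 and Ifit1 ran the other way. Stmn1, a tubulin-binding protein of dividing cells, had -0.79 in the knockout-labelled library and 0.628 in the wild-type library. Of its 65 UMIs in wild-type CD8 T cells, 21 came from 1 cell, so its wild-type ratio leans on that cell. Ifit1, an interferon-induced gene, had -0.832 in the knockout-labelled library and 0.798 in the wild-type library.

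The CD8 rule also took cells in data that no comparison used: 8 cells of the intestine 3 days after UUO and 8 cells of the intestine after sham surgery.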

How the results depend on the processing

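Each group was 1 library, so no replicate could be left out. No paired analysis was possible because each group holds a single library and no replicate number is shared. Alternatives on tubule cells, type 17 cells and Ccl5-bearing cells were chosen after seeing the data. CD8 T cells were a larger share of the knockout-labelled library under each alternative run for that share. It was 37.7% with at least 1 CD8 UMI, 25.8% with at least 3, 24.8% with both chains, 18.2% with 1000 UMIs drawn per cell before the rule was applied, 32.6% without tubule UMIs and 23.1% without type 17 or gamma-chain UMIs. In the wild-type library it was 13.2%, 8.08%, 7.69%, 6.43% and, without type 17 or gamma-chain UMIs, 7.44%. Cells with Ccl5 at the stated bar were 88.4% with at least 1 CD8 UMI and 92.6% with at least 3 in the knockout-labelled library, and 95.9% or 86.4% with a bar of 1 or 3 Ccl5 UMIs. They were 88.0% there with 1000 UMIs drawn before the rule was applied, where the 82.6% of the Results had the rule applied first. In the wild-type library they were 64.3% with at least 1 CD8 UMI, 79.9% or 69.9% with a bar of 1 or 3, and 83.5% without type 17 or gamma-chain UMIs.

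Counts of genes past 1.5 times moved with the number of genes measured. With 1000 UMIs drawn before the rule was applied, a floor of 20 UMIs and a floor of 1 UMI per library, 205, 1184 and 1415 genes were higher in the knockout-labelled library and 154, 916 and 2001 lower. Genes higher in CD8 than CD4 T cells in both libraries numbered 45, 344 and 542, and lower ones 75, 407 and 743. Of 831 values for 60 single genes, 708 moved within counting error and 118 moved further, and 5 values of genes past 1.5 times changed sign. Those were Hspa1b (1.23 at 1000 UMIs, 1.35 in Ccl5-bearing cells), Cpm (0.20 without type 17 or gamma-chain UMIs, 0.13 in Ccl5-bearing cells) and Krt83 (0.13 without type 17 or gamma-chain UMIs). Of 12 genes within 1.5 times, 8 also crossed 0 under some alternative. Hlf stood at -0.20, and at 1.95 without type 17 or gamma-chain UMIs. In Ccl5-bearing cells Tmem176b had 1.42 and Ramp3 1.19, against -0.39 and -0.06 over all CD8 T cells. Of 20 list medians, 10 changed sign, chemokine receptors (0.02 with at least 1 CD8 UMI) and 9 lists whose main median lay within 0.107 of 0. Some of those lists moved well away from 0 under the alternatives. Innate-like T cell genes ranged from -0.69 to 0.47, chemokines from -0.42 to 0.42 and cell cycle genes from -0.07 to 0.51. Wild-type depth limits low genes such as Havcr2.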
